A study of Mus musculus with 5 samples.

Results

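The genes described here are 10 germ cell identity regulators of the mouse: Dazl, Stra8, Sohlh2, Figla, Nobox, Brdt, Tex14, Tex15, Tex101 and Tex19.1. They were given by name, with no threshold on a measured value but with earlier results of these data known, and stand against 27051 genes with a window at a start or an end in the RefSeq annotation of mm10. DNA methylation had been read by whole-genome bisulfite sequencing, in which unmethylated cytosines are converted and read as T, in C57BL/6 mouse sperm that swam out of the cauda epididymis. Of the 5 libraries, 2 came from mice aged 18 months (old replicates 1 and 2) and 3 from mice aged 2 months (young replicates 1 to 3). The labels give no allele or treatment. They name no animals, so a p-value here speaks only of the spread between libraries, which may be technical. A level is the percent of reads, summed over the listed CpGs of a gene part, that were read as methylated. Each gene was split into its start (the transcription start with 1000 bp either side) and its body (the rest of the gene with 1000 bp either side).

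These genes act at successive steps of germ cell life. Dazl makes cells competent for sex-specific germ cell development by binding mRNAs, Sohlh2, Figla and Nobox switch on programmes of spermatogonia and oocytes, Stra8 starts meiosis, and Brdt reads acetylated histones during meiosis and in spermatids. The promoters of many such genes are rich in CpGs, gain methylation in somatic cells of the embryo, which keeps the genes silent there, and lose it in primordial germ cells. Gene bodies, in contrast, are methylated over most CpGs in sperm.

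Of the 9 regulators with an annotated start, 8 had a start less than 50% methylated over the pooled reads of the 5 libraries. The share among 24338 gene starts was 48.0%. Tex101 and Tex19.1 lay close to that limit, at 47.9% each, and Tex14 had start reads in 1 library only. All 10 bodies were over 80% methylated. The median of the 10 bodies, 92.1%, was near the median of 91.7% over 25542 gene bodies. Dazl was at 9.35% over 139 reads, and Figla, an oocyte factor, had the most methylated start, at 80%. No regulator was called different between old and young sperm. Most starts fell under the minimum set for the test of age: 1 of 10 starts and 7 of 10 bodies had 20 reads and 3 CpGs in every library.

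The promoter sequences show where the reads lay. RefSeq promoters of build GRCm38.p6, from 250 bases before to 50 bases after the start, were found for 9 of the 10 genes, all but Tex15. The 5 below are those whose start levels are described most fully, written 5′ to 3′ on the gene's own strand, with capitals for the CpGs that had at least 5 reads in any library. Dazl is chr17:50293571-50293870 on the minus strand, Stra8 chr6:34920698-34920997, Sohlh2 chr3:55181794-55182093, Brdt chr5:107330944-107331243 and Tex19.1 chr11:121145893-121146192, the last 4 on the plus strand.
Dazl: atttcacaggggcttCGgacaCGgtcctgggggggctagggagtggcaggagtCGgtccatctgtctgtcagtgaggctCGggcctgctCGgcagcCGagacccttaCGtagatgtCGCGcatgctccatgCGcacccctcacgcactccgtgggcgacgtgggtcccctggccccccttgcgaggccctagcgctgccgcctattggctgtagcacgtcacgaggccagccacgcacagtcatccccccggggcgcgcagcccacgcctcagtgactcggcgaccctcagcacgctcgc
Stra8: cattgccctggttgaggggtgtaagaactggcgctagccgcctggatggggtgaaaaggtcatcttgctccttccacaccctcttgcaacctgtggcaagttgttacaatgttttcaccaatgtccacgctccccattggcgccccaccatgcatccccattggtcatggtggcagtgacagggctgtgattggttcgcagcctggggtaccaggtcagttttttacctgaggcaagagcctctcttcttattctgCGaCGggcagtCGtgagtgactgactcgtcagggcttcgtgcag
Sohlh2: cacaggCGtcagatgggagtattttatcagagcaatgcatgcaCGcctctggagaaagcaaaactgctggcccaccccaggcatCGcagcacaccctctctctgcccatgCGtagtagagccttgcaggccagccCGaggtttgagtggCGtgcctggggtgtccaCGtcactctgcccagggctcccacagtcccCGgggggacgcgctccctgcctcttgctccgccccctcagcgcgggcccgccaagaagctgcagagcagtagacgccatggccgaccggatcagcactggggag
Brdt: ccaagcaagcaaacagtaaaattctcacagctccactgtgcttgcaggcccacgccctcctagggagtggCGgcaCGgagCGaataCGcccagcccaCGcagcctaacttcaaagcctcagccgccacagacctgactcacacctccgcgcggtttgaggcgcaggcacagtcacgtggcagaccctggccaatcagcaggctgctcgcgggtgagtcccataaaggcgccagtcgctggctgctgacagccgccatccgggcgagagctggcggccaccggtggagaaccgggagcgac
Tex19.1: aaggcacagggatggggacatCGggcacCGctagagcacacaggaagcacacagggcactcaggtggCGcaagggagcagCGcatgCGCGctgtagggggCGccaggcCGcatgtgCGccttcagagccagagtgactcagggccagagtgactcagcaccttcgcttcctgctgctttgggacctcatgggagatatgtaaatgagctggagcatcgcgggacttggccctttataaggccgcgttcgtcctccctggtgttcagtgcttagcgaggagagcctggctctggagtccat

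The Dazl promoter held 28 CpGs, the most of the 9, and 10 of them were covered, all upstream of the start. In Stra8 the 3 covered CpGs lay in the last bases, past the start. All 9 promoters had more CpGs than the median of 7 over all RefSeq promoters, with 10 (Stra8) to 28 (Dazl), and all 9 had a CpG content relative to base composition above the median ratio of 0.384. This observed-to-expected ratio was highest in Dazl at 0.795, Brdt at 0.738 and Tex101 at 0.70, a gene for a membrane-anchored germ cell protein needed for sperm fertility. It was lowest, and near the median, in Nobox at 0.411 and Stra8 at 0.430, with 52.2% and 53.5% of promoters lower. Across the 9 promoters 37 of 162 CpGs were listed in any library, in 6 promoters, and no CpG was listed in those of Figla, Nobox and Tex14. A pair of motifs was searched on both strands. The letters TCCCGC, the core of the site of E2F6, a repressor of germline genes in somatic cells, were in 2 of the 9, Tex14 at base 140 and Tex19.1 at base 218, and in 20% of 32851 promoters. The E-box CACGTG was in 1 of the 9, Brdt at base 173, and in 7.15% of all promoters. Both motifs hold a CpG, and neither contains the other.

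Coverage limited every value at the starts. Reads over listed cytosines summed to 90716510 and 90640296 in old replicates 1 and 2 and to 84117315, 67774094 and 97769462 in young replicates 1 to 3. Only cytosines with at least 5 reads were listed, and the median CpG had 7. Of 13063725 CpGs listed in any library, 2255866 were listed in all 5. At the regulators' starts, 165 CpGs were listed in any library, 121 of them in 1 library only, 36 in both ages and 5 in all 5 libraries, and 74.7% of the listings had 5 or 6 reads. The libraries therefore mostly read different CpGs of the same start, and a level per library compares different places. Neighbouring CpGs are also covered by the same reads, and a read counts once at each CpG it covers. The Wilson 95% intervals given here take these counts as separate, so they are too narrow, and they cover no spread between libraries.

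**Figure D1:**
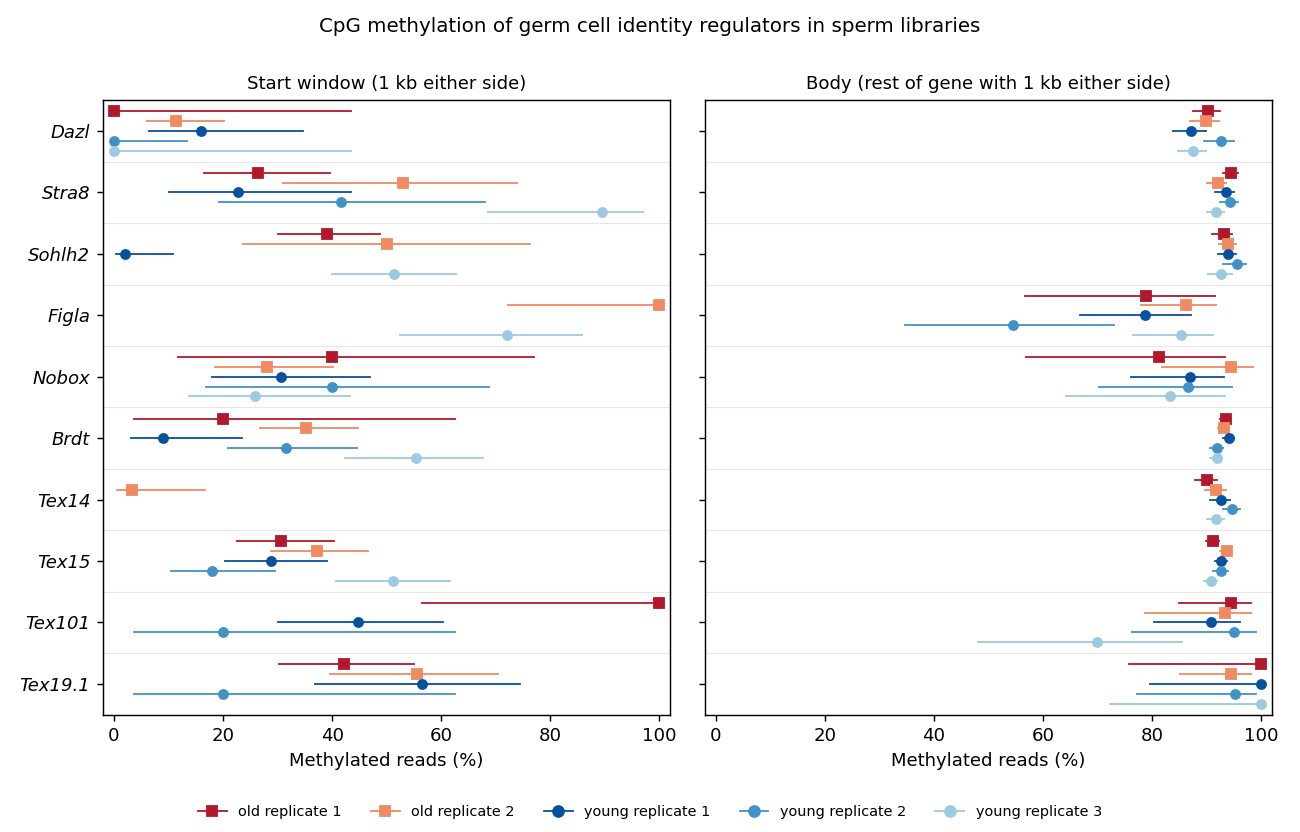
Percent of methylated reads at the start window (left) and in the body (right) of each regulator, 1 symbol per library, with squares for the 2 old and circles for the 3 young libraries; bars are Wilson 95% intervals. Bodies lie near 90% in most libraries, starts lie lower with wide intervals, and a missing symbol is a library with no listed CpG.

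Dazl (chr17:50279393-50293620, minus strand) had the lowest start among the regulators read in all 5 libraries. Old replicates 1 and 2 had 0.0% and 11.4% at its start, on 5 and 79 reads, and young replicates 1 to 3 had 16%, 0.0% and 0.0%, on 25, 25 and 5 reads. The ages overlapped, with means of 5.70 ± 8.06% in old (SD, n = 2) and 5.33 ± 9.24% in young sperm (SD, n = 3). The 0 of 25 reads in young replicate 2 were 5 reads at each of 5 CpGs. Counted as separate reads they allow a level of up to 12% (3 divided by the reads), and fewer separate reads allow more. Where the promoter above has capitals, old replicate 2 alone had reads, with 13% of 69 methylated (7.02% to 23.0%). Of the 22 CpGs listed over the whole start, 15 were under 20% methylated and none was over 80%. The Dazl body had 90.3% and 89.9% in old and 87.1%, 92.7% and 87.6% in young replicates, on 358 to 612 reads, with both old libraries inside the young range.

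Brdt (chr5:107331116-107387061, plus strand), the testis member of the BET bromodomain family, had a partly methylated start. Its start level was 20% and 35.2% in old replicates 1 and 2, on 5 and 105 reads, and 9.09%, 31.6% and 55.4% in young replicates 1 to 3, on 33, 57 and 56 reads. Young libraries spanned the whole range and held both old values within it. The means were 27.6 ± 10.8% in old (SD, n = 2) and 32.0 ± 23.1% in young sperm (SD, n = 3). Brdt was the start with the most CpGs read in both ages, 11. Over those 11, 37.3% of 83 old reads and 31.6% of 95 young reads were methylated, and old was higher at 8 CpGs and lower at 2. The 2 percents lie within each other's intervals (27.7% to 48.1% in old and 23.1% to 41.5% in young). The mean of the library levels over the same CpGs went the other way, with 29.2% in old and 32.1% in young sperm. The Brdt body was the most deeply read of all, with 1745 to 2565 reads, at 93.5% and 93.1% in old and 94.2%, 91.9% and 91.9% in young replicates.

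Sohlh2 (chr3:55182044-55209957, plus strand), a helix-loop-helix factor of differentiating spermatogonia and young oocytes, showed a wide gap between young libraries. Its start level was 39.0% and 50% in old replicates 1 and 2, on 100 and 10 reads, and 2.08% and 51.4% in young replicates 1 and 3, on 48 and 70 reads, with none in young replicate 2. Young replicate 1 had reads only between 500 and 1000 bp past the start, a stretch where old replicates 1 and 2 had 48.2% and 20% and young replicate 3 had 38.7%. In the 500 bp before the start, which the printed promoter covers in part, old replicates 1 and 2 had 27.3% and 80% and young replicate 3 had 61.5%. Within the 300 bases printed above, old replicate 1 had 23.5% and young replicate 3 had 58.8%, on 34 reads each, at 5 to 7 reads per CpG. Over the 6 CpGs read in both ages, 27.5% of 40 old reads (16.1% to 42.8%) and 45.2% of 42 young reads (31.2% to 60.1%) were methylated. Young replicate 3 gave 37 of those 42 reads, and the mean of the library levels at these CpGs was 24.3% in old and 25.7% in young sperm. The Sohlh2 body was at 93.1% and 94.0% in old and 94.0%, 95.5% and 92.7% in young replicates.

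Stra8 (chr6:34920163-34939344, plus strand), the retinoic acid target that starts meiosis, had a start that was not evenly methylated. Over all libraries, 67.7% of 62 reads were methylated between 1000 and 500 bp before the start, and 13.1% of 61 reads were methylated in the 500 bp after it. The libraries read these stretches unevenly: young replicates 2 and 3 had reads only upstream. The start used, base 34920948, lies inside the gene span. The CpGs before it at bases 34920370 and 34920416 are therefore within the annotated gene. The whole start read 26.4% and 52.9% in old replicates 1 and 2 and 22.7%, 41.7% and 89.5% in young replicates 1 to 3, on 12 to 53 reads. Within the upstream stretch alone the ages overlapped, with 50% and 75.0% in old and 71.4%, 41.7% and 89.5% in young replicates. Just past the start, at the capitals of the Stra8 sequence above, young replicate 1 had 0 of 15 reads methylated, 5 at each of 3 CpGs. Counted as separate reads they allow up to 20%, but neighbouring CpGs share reads, and fewer separate reads allow more. The Stra8 body was at 94.5% and 92.1% in old and 93.5%, 94.3% and 91.8% in young replicates.

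**Figure D2:**
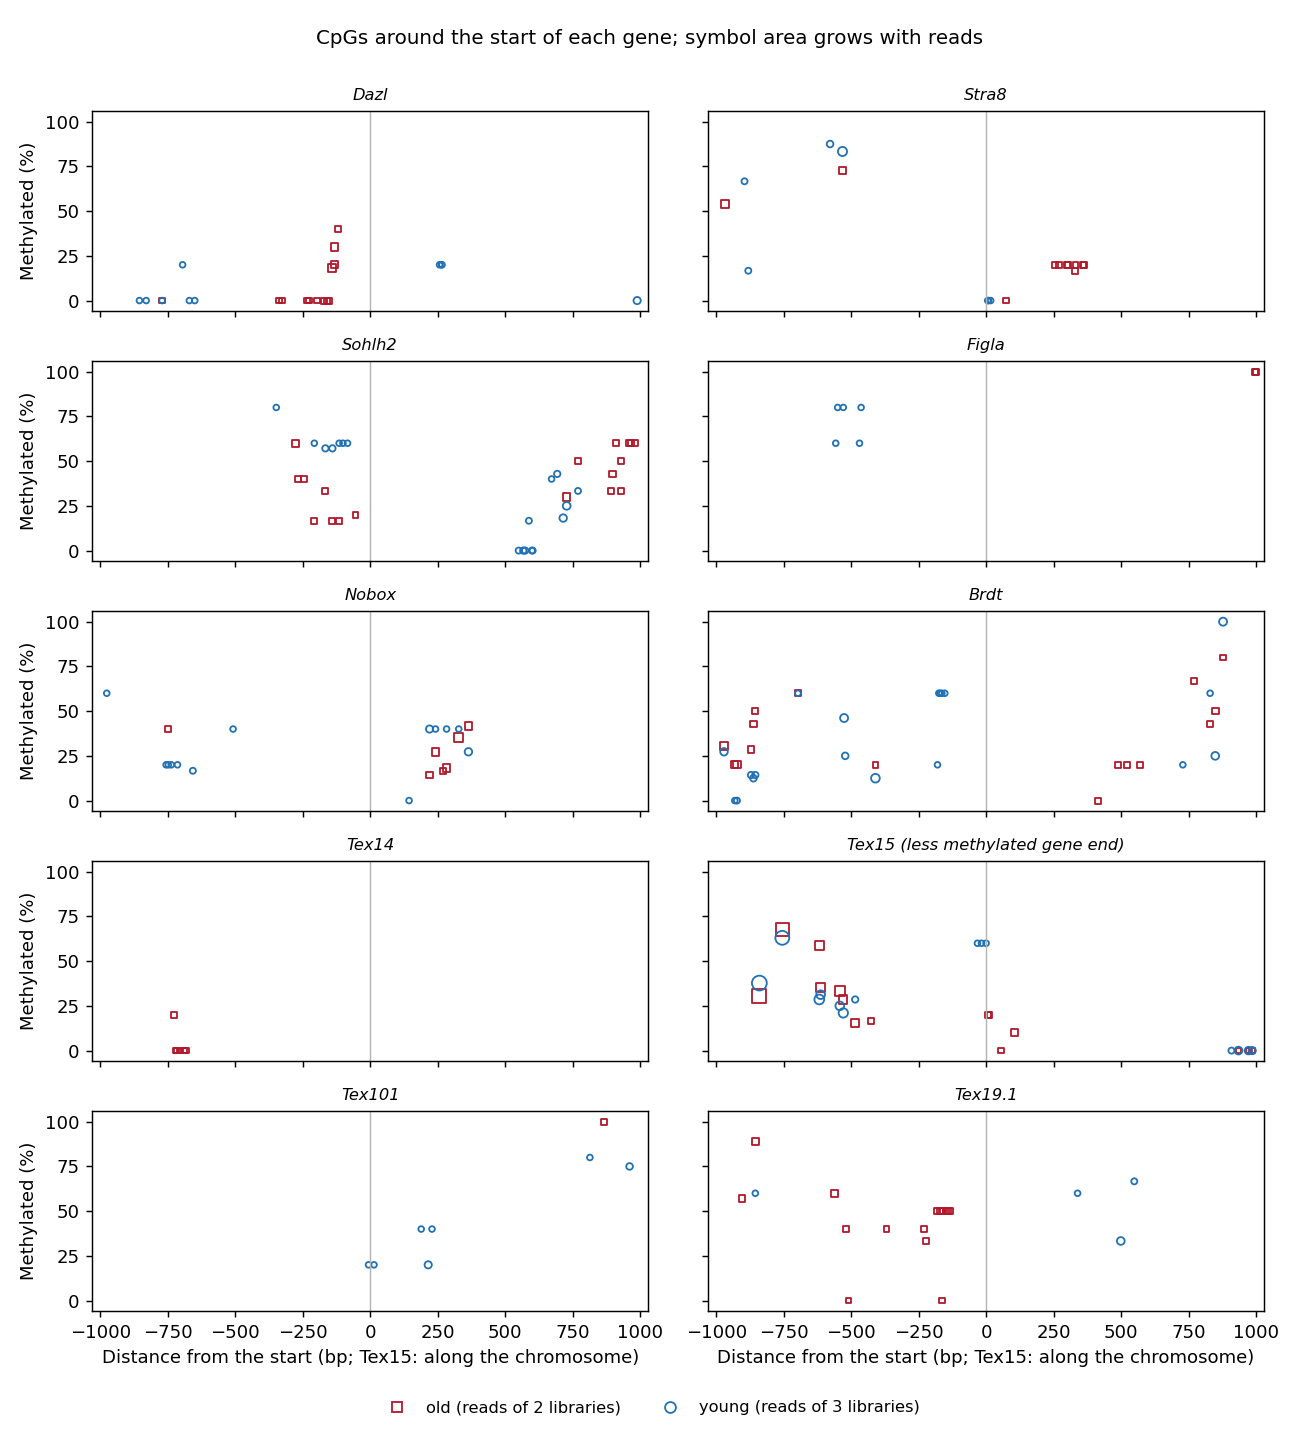
Each listed CpG within 1000 bp of a regulator's start, with percent methylated on the vertical axis and distance from the start in bp on the horizontal axis; red squares sum the 2 old libraries, blue circles the 3 young libraries, and symbol area grows with reads. Of the 5 Stra8 CpGs upstream all but 1 are over 50%, those after the start are at or under 20%, Dazl CpGs are at or under 40%, and few places carry both symbols.

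Nobox (chr6:43303674-43310072, minus strand), a homeobox factor of oocytes, had similar values in every library, though on few reads. Its start was at 40.0% and 28.1% in old replicates 1 and 2, on 5 and 64 reads, and at 30.6%, 40.0% and 25.8% in young replicates 1 to 3, on 36, 10 and 31 reads. It had 29.3% upstream, between 1000 and 500 bp before the start, and 29.5% in the 500 bp after it. The Nobox body was at 81.2% and 94.4% in old and 86.9%, 86.7% and 83.3% in young replicates, on 16 to 61 reads, so the old libraries lay either side of the young ones.

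Figla (chr6:86016494-86020996, plus strand), the factor that switches on the zona pellucida genes of the oocyte, was the exception to the low starts. Old replicate 2 had 10 of 10 reads methylated at 2 CpGs, and young replicate 3 had 72.0% of 25 reads at 5 CpGs. The remaining libraries had no listed CpG there, and no CpG was read in both ages. The Figla body was also the least methylated of the 10, at 78.9% and 86.3% in old and 78.7%, 54.5% and 85.4% in young replicates, on 19 to 95 reads. Its value of 54.5% in young replicate 2 rested on 22 reads.

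The Tex genes, named for their expression in testis, have diverse roles in germ cells. Tex15 (chr8:33516689-33592503), which acts with the nuclear piRNA machinery in fetal male germ cells, has no promoter entry in the table, so its start was taken as the gene end with fewer methylated reads over all libraries. That choice fixes a low level, so the Tex15 start by itself is compared only between ages and libraries. It also enters the sums over all 10 starts given below. It was at 30.7% and 37.3% in old replicates 1 and 2 and at 28.7%, 18.0% and 51.2% in young replicates 1 to 3, on 61 to 110 reads. The old libraries lay between the lowest and the highest young library, and the means were 34.0 ± 4.65% in old (SD, n = 2) and 32.7 ± 16.9% in young sperm (SD, n = 3). Its 10 CpGs read in both ages had 37.8% of 180 old reads and 33.2% of 211 young reads methylated, and the mean of the library levels there was 38.8% in old and 31.2% in young sperm. The Tex15 body was at 91.3% and 93.7% in old and 92.7%, 92.6% and 90.8% in young replicates, on 1510 to 2438 reads.

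Tex19.1 (chr11:121146143-121148314, plus strand), which restrains transposons in germ cells, had a partly methylated start in 4 libraries. It was at 42.1% and 55.6% in old replicates 1 and 2, on 57 and 36 reads, and at 56.5% and 20% in young replicates 1 and 2, on 23 and 5 reads. The 9 CpGs in capitals in its printed promoter came from old replicate 1 alone, with 42.3% of 52 reads methylated, at 5 or 6 reads per CpG. Its body had 94.5% to 100% in all libraries, with 10 to 55 reads.

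Tex101 (chr7:24668012-24672050, minus strand) had a start that was unevenly methylated, with 83.3% of 18 reads between 500 and 1000 bp past it and 28.0% of 25 reads in the first 500 bp. Old replicate 1 had reads only in that farther stretch, 5 of 5 methylated, while young replicates 1 and 2 had 44.7% and 20% over the whole start, on 38 and 5 reads. The body of Tex101 was at 94.4% and 93.3% in old and 90.9%, 95% and 70% in young replicates, with 20 reads behind the value of 70%.

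Tex14 (chr11:87405013-87555823, plus strand), a protein of the bridges that join dividing germ cells, had start reads in 1 library. Old replicate 2 had 3.33% of 30 reads methylated, at 6 CpGs between 1000 and 500 bp before the start. Those CpGs lie where the start window overlaps Rad51c, a neighbouring recombination gene whose span reaches to base 87404954, so the value belongs to both genes. The Tex14 body was at 90.1% and 91.8% in old and 92.7%, 94.8% and 91.8% in young replicates, on 762 to 1105 reads. Its span also holds the 4 near-identical small nuclear RNA genes Rnu3b1, Rnu3b2, Rnu3b3 and Rnu3b4, whose reads the alignment could exchange.

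Ordered by pooled start level, the 9 regulators with an annotated start ran from Tex14 at 3.33% and Dazl at 9.35%, through Nobox at 29.5%, Brdt at 35.2%, Sohlh2 at 35.5%, Stra8 at 40.7%, Tex101 and Tex19.1 at 47.9% each, to Figla at 80%. The Tex14 value rests on 1 library and on CpGs that also lie in Rad51c. Only 2 pairs of neighbours in this order had intervals that did not overlap. As these intervals are too narrow, the 2 gaps are given as description and were not tested. The interval of Dazl ended at 15.3% and that of Nobox began at 22.7%, while that of Tex19.1 ended at 56.8% and that of Figla began at 64.1%. Among the gene starts with at least 20 pooled reads the median level was 54.2%. Dazl was low in this wider set, where 20% of starts were lower still. Nobox, Brdt, Sohlh2 and Stra8 lay near the middle, with 37.9% to 44.1% of starts lower. The bodies ran from 81.5% (Figla) to 96.5% (Tex19.1), against a median of 91.7% over 25542 gene bodies.

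**Figure D3:**
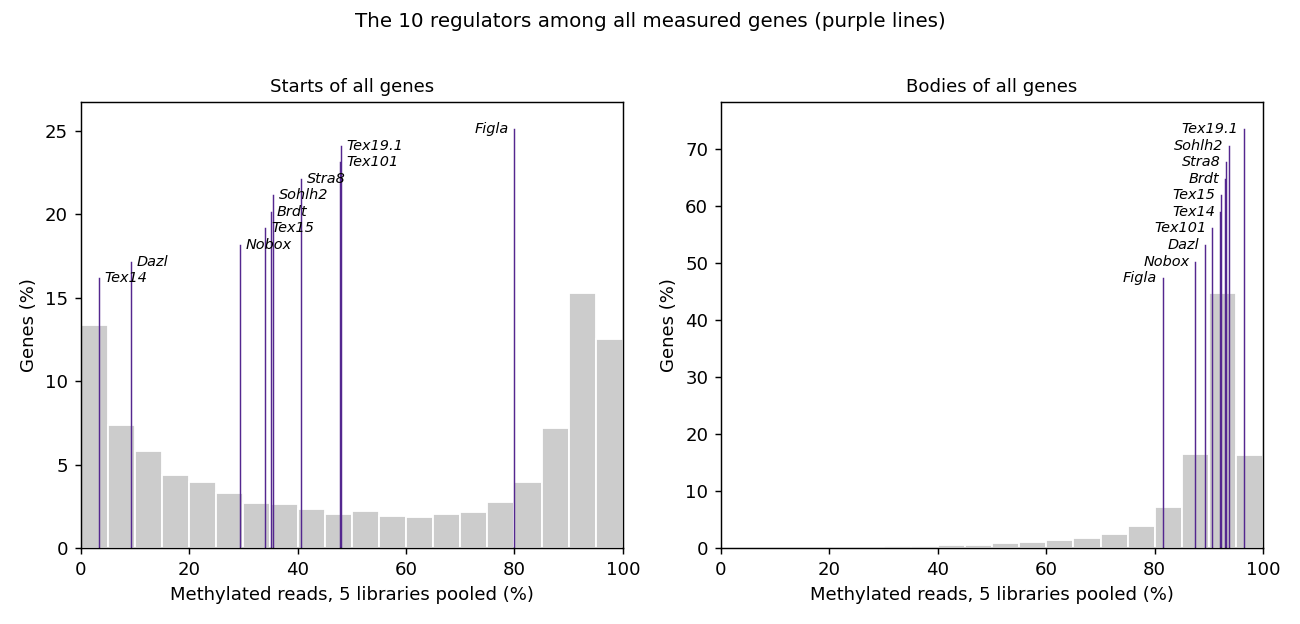
Histograms of the percent of methylated reads, pooled over 5 libraries, for the starts (left) and bodies (right) of all measured genes, as a percent of genes, with purple lines at the 10 regulators. Starts of all genes pile up near 0% and above 85%, and 6 regulators (Nobox, Brdt, Sohlh2, Stra8, Tex101 and Tex19.1) lie between these piles, from 29.5% to 47.9%; the place of Tex15 was fixed by the choice of its less methylated end.

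Within a library, the start was lower than the body of the same gene in each of the 4 regulators with an annotated start and reads in both parts of all 5 libraries. The share of genes with reads in both parts of all libraries whose start was lower in each library was 51% of 13518, so 4 of 4 is set against about that background. The start minus body difference was -84.0 ± 9.0 points in Dazl, -62.7 ± 18.3 in Brdt, -53.6 ± 9.81 in Nobox and -46.6 ± 27.9 in Stra8 (SD over n = 5 libraries). For each of the 4, the two-sided exact permutation test that flips the sign of each library's difference gave p = 0.0625, the smallest that 5 libraries allow. Sohlh2 and Tex19.1 were lower at the start in each of 4 libraries, with differences of -57.8 ± 23.4 and -53.9 ± 16.4 points, and Tex101 in 2 of 3. Figla was lower at the start in 1 of 2 libraries, with a mean difference of 0.145 points. No p was computed for these genes, nor for Tex15, whose end was chosen by its level.

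The study asked whether methylation of sperm DNA differs with age. No regulator was called different in old sperm, where a call took 10 or more points of difference together with an adjusted p under 0.05. Among all starts, 0 of 6828 tested were called (0%), with 276 at an unadjusted p under 0.05, 116 of them higher and 160 lower in old sperm. Among all bodies, 0 of 20874 tested were called (0%), with 591 at an unadjusted p under 0.05. These counts are from a quasi-binomial model whose dispersion was moderated with limma's method. A limma fit of the log2 odds also called 0 starts and 0 bodies, with 283 and 718 at an unadjusted p under 0.05. A binomial model that lets libraries vary only by counting error called 524 of 6828 starts and 595 of 20874 bodies. None was a regulator, but only 1 regulator start and 7 regulator bodies were tested there. So few could all go uncalled at these shares.

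The Tex15 start differed by 1.33 points, old minus young, with an adjusted p of 1. With the minimum lowered to 1 read in every library, 14762 starts were tested and 0 were called, and 4 more regulators gave a value. The adjusted p was 0.968 in Dazl, 0.926 in Stra8, and 1 in Brdt and Nobox, for differences of 0.36, -11.6, -4.39 and 1.94 points. Among the 7 tested bodies, old sperm had the higher mean in 5 and the lower in 2, and every adjusted p was 1. The difference was 0.93 points in Dazl, 0.12 in Stra8, 0.69 in Brdt, 0.42 in Tex15, 8.59 in Tex101, -0.50 in Sohlh2 and -2.10 in Tex14. The old and young libraries overlapped in all 7 bodies, where 14.2% of all tested bodies did not overlap. Tex101, the body with the largest difference, depended on 1 library: without young replicate 3 it differed by 0.93 points. The Tex14 difference was the largest of the well-read bodies, with means of 91.0 ± 1.21% in old (SD, n = 2) and 93.1 ± 1.53% in young sperm (SD, n = 3). It came to -0.06 points with only CpGs of at least 10 reads and to -0.03 with CpGs listed in all libraries, but to -3.76 with a start window of 500 bp and to -5.39 with each CpG weighted equally. In Dazl, Stra8, Sohlh2 and Tex15 the sign of the body difference changed when single libraries were left out.

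**Figure D4:**
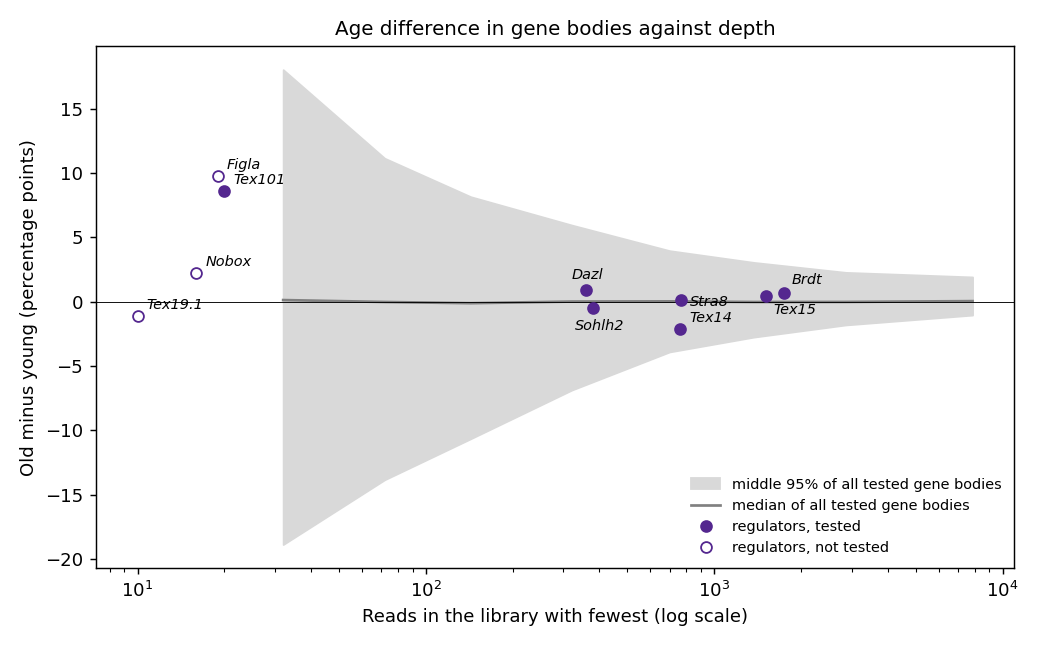
Old minus young level of each regulator's body, in percentage points, against the reads of its least-read library on a log scale; filled circles were tested and open circles were not, and the grey band spans the middle 95% of all tested bodies at each depth. The 6 regulators with over 300 reads lie inside the band, between -2.10 and 0.93 points.

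Body CpGs read as partly methylated, between 30% and 70% with at least 10 reads, were few in every well-read regulator. In Tex15 they numbered 6 of 66 in old replicate 1 and 1 of 75 in old replicate 2, against 2 of 69, 1 of 41 and 3 of 73 in young replicates 1 to 3. In Brdt they numbered 5 of 39 and 1 of 77 in the old replicates, against 0 of 51, 3 of 30 and 1 of 60 in the young ones. In the other well-read bodies no library had more than 3. Dazl had 1 of 18 and 2 of 25 in the old replicates, against 3 of 24, 0 of 17 and 3 of 28 in the young ones. Stra8 had 0 of 31 and 2 of 28 in the old, against 1 of 25, 0 of 23 and 0 of 28 in the young replicates. The shares of the ages overlapped in both genes. Sohlh2 had 0 of 15 and 0 of 16 in the old, against 0 of 20, 0 of 5 and 1 of 13 in the young replicates. Tex14 had 2 of 24 and 1 of 18 in the old, against 0 of 19, 0 of 19 and 1 of 30 in the young replicates. In Tex14 the shares of the ages did not overlap, on counts of at most 2 CpGs. These counts were looked at because of earlier results on these libraries, were not computed over all genes and were not tested. Without old replicate 1 the body difference was 1.63 points in Tex15 and 0.49 in Brdt, with an adjusted p of 1 in both.

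At the regulators' starts the young libraries lay farther apart than the ages did. Summed over the 10 starts, 35.0% and 32.5% of reads were methylated in old replicates 1 and 2 and 25.3%, 22.9% and 52.8% in young replicates 1 to 3. The sum includes the less methylated end of Tex15, chosen by its level. Young replicate 3 was the highest library and young replicate 2 the lowest, with both old libraries between them. Starts with a maternal imprint, which are unmethylated in sperm and methylated on the maternal allele in somatic cells, had 25.8% and 24.0% in the old and 21.2%, 14.7% and 32.4% in the young replicates, in the same order of libraries. Of these 10 genes all were measured, and 8 were under 50% in the pooled reads. Nnat, the best read of them, was at 18.3% and 18.6% in the old and 14.7%, 9.41% and 24.9% in the young replicates, on 1630 to 1806 reads. It gave most of the list's reads, such as 1806 of 2589 in young replicate 3, so the list and Nnat are not separate observations. Plagl1, with the largest difference of the 6 tested starts, was at 15.2% and 9.09% in the old and 40%, 32.2% and 19.0% in the young replicates, on 25 to 77 reads. Young replicate 3 was the lowest young library there. The unadjusted p was 0.04 in the quasi-binomial model, and the start was not called. Snrpn was at 78.7 ± 0.344% in old (SD, n = 2) and 75.3 ± 8.79% in young sperm (SD, n = 3), in a window that takes its most upstream start and need not be the imprinted region. The levels of the labelled sperm at Nnat were thus above 0 in all 5 libraries.

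Starts of 6 housekeeping genes, which are unmethylated in most cells, were at 12.1% and 18.0% in the old and 22.0%, 11.4% and 30.5% in the young replicates. Of the 6, 4 had at least 20 pooled reads, and the Actb start was the less methylated end, chosen by its level. Rplp0 gave most of the reads, such as 547 of 607 in young replicate 3. It was at 14.9% and 23.2% in the old and 28.8%, 14.6% and 32.5% in the young replicates. Tbp, the other tested start, was at 4.82% and 7.48% in the old and 9.20%, 2.67% and 14.9% in the young replicates. Starts of 7 leukocyte genes were at 75.5% and 69.2% in the old and 87.2%, 61.2% and 88.0% in the young replicates, and 1 of the 7 was under 50% in the pooled reads. Starts of 8 genes of the epididymal epithelium were at 86.2% and 77.3% in the old and 76.4%, 87.1% and 65.5% in the young replicates, and none was under 50%. The part of other cells, or of the library, in the levels at the regulators' starts was not tested.

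**Figure D5:**
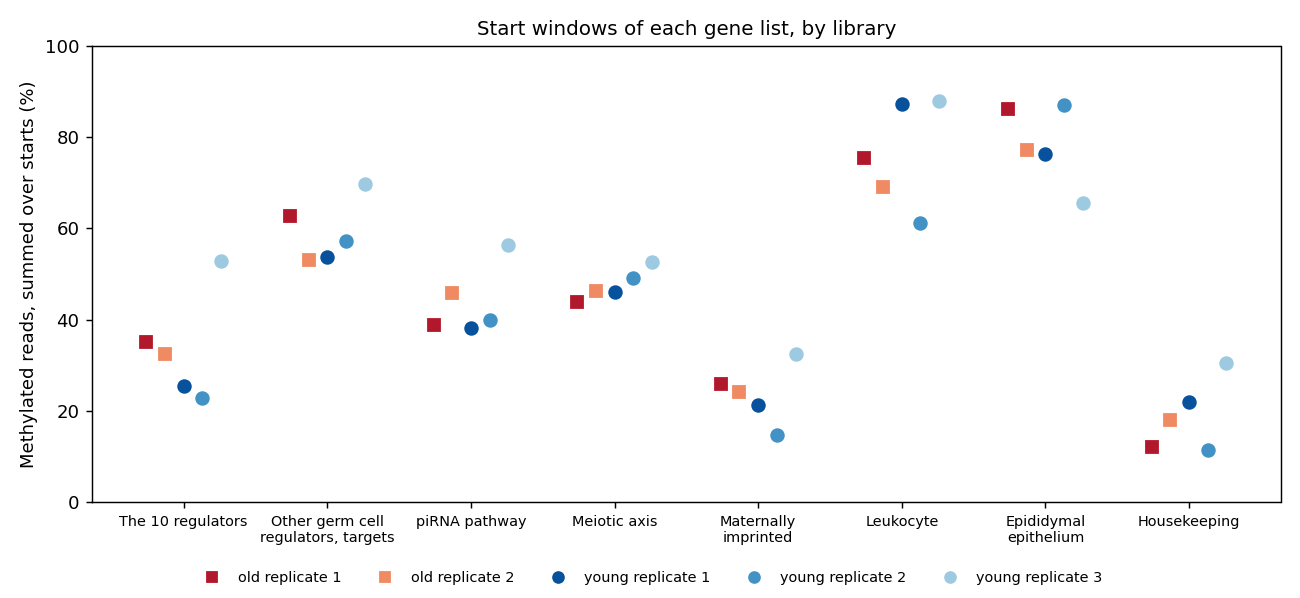
Percent of methylated reads summed over the start windows of each gene list, 1 symbol per library, with squares for the 2 old and circles for the 3 young libraries. The 10 regulators include the less methylated end of Tex15, chosen by its level. Young replicate 3 is the highest and young replicate 2 the lowest at the 10 regulators and at maternally imprinted, housekeeping and leukocyte starts. In the other germ cell, piRNA and meiotic lists young replicate 3 is also the highest, but young replicate 2 is not the lowest. At epididymal starts young replicate 2 is the highest and young replicate 3 the lowest.

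Related germline genes gave no call either. Of 40 other germ cell regulators and their targets 39 matched the annotation, and of the 10 starts tested 0 were called, with 6 higher and 4 lower in old sperm and a median difference of 3.50 points. Nanos2, a factor that keeps male germ cells out of meiosis, was the 1 start of that list at an unadjusted p under 0.05. It was at 44.6% and 33.7% in old replicates 1 and 2, against 61.1%, 51.5% and 60% in young replicates 1 to 3, with 83 to 108 reads in each. Its means were 39.1 ± 7.70% in old (SD, n = 2) and 57.5 ± 5.25% in young sperm (SD, n = 3). Nanos2 is named as the tested start of that list with the largest difference. The adjusted p over all starts was 1 in the quasi-binomial model with limma's moderation. The share of all starts whose ages do not overlap was not computed. Id4, a marker of spermatogonial stem cells, had 47.8% and 11.3% in old and 8.16%, 7.69% and 24.1% in young replicates, so its difference of 16.2 points came from old replicate 1. Ythdc2, which acts in meiotic entry with Meioc, had 91.5% and 90.4% in old and 59.2%, 90.9% and 79.1% in young replicates, at its less methylated end.

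Of the 16 genes of the piRNA pathway, in which Tex15 also acts, 6 starts were tested and 0 were called, with 5 higher and 1 lower in old sperm and a median difference of 1.47 points. Mov10l1, a helicase of piRNA production, had 70.8% and 57.1% in old and 46.7%, 27.5% and 60.5% in young replicates. Tdrd12 had 79.4% and 76.7% in old and 50%, 67.9% and 79.6% in young replicates, and Gtsf1, a partner of Piwi proteins, had 46.2% and 45.5% in old and 75.0%, 47.4% and 44.0% in young replicates. The ages overlapped in all 3. Of the 15 genes of the meiotic axis, which Stra8 helps to switch on, 3 starts were tested and 0 were called, with 1 higher and 2 lower. Sycp3, a core protein of that axis, had 26.5% and 44.0% in old and 34.6%, 44.0% and 62.6% in young replicates. Rad21l, a meiotic cohesin, had 86.7% and 80% in old and 86.0%, 93.0% and 82.2% in young replicates, and Hormad2 had 46.0% and 55.9% in old and 65.1%, 30.6% and 47.7% in young replicates. In the bodies of these 3 lists, 0 of 30, 0 of 16 and 0 of 15 tested genes were called.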

How the data were processed

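Sperm DNA of 2 old and 3 young libraries was analysed, grouped and numbered as the labels give. Per the submitters' processing notes, reads were handled with methylKit 1.4.0, Bismark 0.16.3 and Trim Galore 0.4.3 on build mm10. Settings and any removal of duplicate reads are not given in the sources used. Per the file headers, the deposited values are a coverage count of reads for each cytosine and the percent of them read as C and as T. The lowest coverage was 5 reads in each library. Incomplete conversion reads as methylation, and a C-to-T variant reads as an unmethylated base.

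The strands of each CpG were merged, and reads were then summed over the start and body of each gene. Starts came from the RefSeq promoter table, which gives 27025 genes, the most upstream where a gene has several (4163 genes). In some genes, among them Stra8, Figla and Nobox, that start lies inside the gene span. There, CpGs before the start can lie within the annotated gene. For 27 listed genes without an entry, Tex15 included, the less methylated end by pooled reads was used. Gene spans came from RefSeq, and 111 of 112 listed symbols matched.

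Each part with at least 20 reads and 3 CpGs in every library was tested, old against young, with a quasi-binomial logistic regression on the methylated and unmethylated reads. Its dispersion was moderated as in squeezeVar of limma 3.58.1 (R 4.3.3) and not let under 1. P-values were adjusted by Benjamini-Hochberg over all starts or all bodies. The model was tested on simulated data. Differences are means of library levels. Other steps ran in Python 3.11.15 with scipy 1.17.1, pandas 2.3.3, numpy 2.4.6 and matplotlib 3.10.9.

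All 10 regulators are named, and from each other list the called genes or else up to 3 tested genes with the largest start difference. The members and lists were chosen with earlier results of these data known. Alternatives covered the model, the read and CpG minimum, the coverage limits, the start window, the set of CpGs, the weighting of CpGs, the replicate number, and leaving out each library. The comparison at CpGs listed in both ages, and the count of partly methylated body CpGs, were chosen after seeing the data.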

Additional observations from a re-analysis of the deposited data

How the results depend on the processing

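No regulator was called under any alternative in which it was tested, but few starts could be. No regulator start was tested with CpGs of at least 10 reads or with the 500-bp start window. Under the other alternatives only the Tex15 start was tested, except at the minimum of 1 read, which added Dazl, Stra8, Brdt and Nobox. The bodies of Figla, Nobox and Tex19.1 were also tested only at that minimum. The starts called numbered 0 of all tested under each alternative but the binomial model, with 524 of 6828. The bodies called numbered 0 under each but the binomial model, with 595 of 20874, and CpGs with at least 10 reads, with 1 of 14695. That body was Tafa5 (79.4% old against 93.2% young, adjusted p = 0.0256 in the moderated quasi-binomial model). With each library left out in turn, 0 starts and 0 bodies were called. Old and young share 2 replicate numbers. For same-numbered libraries, the deviations of each gene's level from its group mean were correlated across genes. These correlations of deviations, not of levels, were near 0, at 0.0414 and 0.0058 at starts and -0.0103 and -0.0075 at bodies, which does not establish pairs. With 2 old libraries their deviations are mirror images, so each young library gives the same value with either, with opposite sign. With the replicate number as a block 0 starts and 0 bodies were called, and the body difference was -0.59 in Stra8 and -0.21 in Tex15.

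Small differences changed sign, and the cause was not tested. Dazl's body differed by -1.16 points at CpGs with at least 10 reads and -0.52 at CpGs listed in all libraries. Sohlh2's body differed by 0.69 and 1.5 points there, and by 0.49 with a 500-bp start window, where Tex19.1's body differed by -11.4. At CpGs listed in both ages the body differed by -0.43 in Stra8 and -0.0415 in Tex15. With each CpG weighted equally the Tex15 start differed by -1.53 points. With each library left out, the bodies spanned -0.0789 to 2.72 (Dazl), -1.11 to 1.36 (Stra8), -1.18 to 0.22 (Sohlh2) and -0.79 to 1.63 (Tex15), and the Tex15 start -5.98 to 10.6. Depth limits the starts most: 9 of 10 were under the minimum of the test.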
